A study of Mus musculus with 8 samples.

Results

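The pools si308 and si309 are siRNA mixtures made by dicing double-stranded RNA copied from separate fragments of mouse Dux (mDux), and the comparison set the 2 libraries with si309 against the 2 libraries with si308, 4 of the 8 libraries of the study. The cells were mouse embryonic stem cells with a MERVL:GFP transgene, grown on gelatin with serum, leukemia inhibitory factor and the 2i inhibitors CHIR99021 and PD0325901. Both groups were transfected on consecutive days with 20 pmol of siRNA in all, 10 pmol against Chaf1a and 10 pmol of an mDux pool, although the condition label of 1 si309 library gave no dose. The 2 negative control libraries received 20 pmol of negative control siRNA. In the 2 libraries called Chaf1a siRNA, the cells got 10 pmol against Chaf1a and 10 pmol of the negative control, and both groups are given beside the pools for scale. The study's description calls the 2 libraries of a condition biological replicates and does not say whether they came from separate cultures, so p-values measure the spread between these libraries. The cells are a reporter line kept in culture, and the sources used here do not say whether it is 1 clone.

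DUX is a double homeobox transcription factor that switches on genes of the two-cell embryo, among them the Zscan4 cluster and genes driven by MERVL, an endogenous retrovirus whose LTR is called MT2_Mm. A small share of mouse embryonic stem cells passes through this two-cell-like state, and depletion of CAF-1, the chromatin assembly complex whose largest subunit is encoded by Chaf1a, makes such cells more frequent. A diced pool holds many short siRNAs from 1 long RNA, so it can act on any transcript that contains the same bases, and pools from separate fragments of a gene are commonly compared to separate effects on the target from effects on other RNAs.

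Both fragments were placed by the primers in the study's description on the single-exon Duxf3 transcript of 2025 bases (4933403O03Rik in the count table), on the minus strand of chromosome 10 in GRCm38. The si308 fragment of 408 bases, chr10:58231220-58231627, lies in the coding exon and covers codons 350 to 486. The si309 fragment of 480 bases, chr10:58230694-58231173, covers codons 501 to 661 of the same exon, and 46 bases lie between the fragments. The primers amplified genomic DNA, so other copies of the array may also have served as template. The fragments are printed because they are what the pools were made to match, from the first base that both have in common. The 300 bases shown are bases 1 to 300 of the si308 fragment (chr10:58231328-58231627) and bases 96 to 395 of the si309 fragment (chr10:58230779-58231078), 5′ to 3′ on the minus strand, and capitals mark every base that lies in a 21-base stretch found in both fragments.
si308: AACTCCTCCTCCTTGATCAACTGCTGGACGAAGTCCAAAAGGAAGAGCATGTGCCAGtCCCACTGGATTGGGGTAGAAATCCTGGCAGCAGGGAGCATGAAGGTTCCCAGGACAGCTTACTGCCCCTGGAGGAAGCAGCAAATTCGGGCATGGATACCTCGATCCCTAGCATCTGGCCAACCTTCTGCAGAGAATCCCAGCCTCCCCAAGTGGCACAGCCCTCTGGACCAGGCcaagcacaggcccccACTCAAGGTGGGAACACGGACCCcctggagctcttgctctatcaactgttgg
si309: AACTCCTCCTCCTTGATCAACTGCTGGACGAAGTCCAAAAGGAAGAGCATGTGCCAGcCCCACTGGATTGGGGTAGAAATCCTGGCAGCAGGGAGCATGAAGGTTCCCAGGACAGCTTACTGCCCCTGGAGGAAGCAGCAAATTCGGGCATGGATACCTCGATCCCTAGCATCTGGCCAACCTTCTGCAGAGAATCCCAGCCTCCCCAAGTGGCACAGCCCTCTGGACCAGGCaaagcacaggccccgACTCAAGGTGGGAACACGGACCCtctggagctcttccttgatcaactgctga
The fragments had much sequence in common. Of the 388 different 21-base stretches of si308, 195 (50.3%) also occurred in si309, and they were 42.4% of the 460 stretches of si309. The longest run in common was 175 bases, 255 bases of each fragment lay in such stretches, and 153 bases of si308 and 225 bases of si309 did not. Beyond Duxf3, the GENCODE M21 transcripts that held a 21-base stretch of either fragment came from 4 other copies of the Dux array on chromosome 10, all in the sense direction. Gm10807 held 92% of the stretches of si308 and 78.7% of those of si309, AW822073 held 75.3% and 69.8%, Gm19459 held 18.6% and 33.9%, and Gm4981 held 3.09% and 5.87%. Stretches of 19 bases pointed to the same 5 genes.

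The libraries held 30320146 and 42375685 gene counts with si308 and 30376942 and 38179797 with si309, and levels are given as CPM, counts scaled to a common library size after TMM scaling. Chaf1a, the siRNA target that both groups share, measured 35.2 and 33.9 CPM with si308 and 33.6 and 29.2 CPM with si309, against 139 and 140 CPM in the negative control and 28.7 and 30.8 CPM with Chaf1a siRNA. All 4 pool libraries were far below the negative control, and the highest si309 library was just under the lowest si308 library. The difference did not pass the test (log2 -0.14, SE 0.071, adjusted p = 0.34 by edgeR's quasi-likelihood test with Benjamini-Hochberg adjustment over 17970 genes, the test behind every adjusted p of a gene below). The 10 embryonic stem cell markers examined, among them Pou5f1, Sox2, Nanog and Esrrb, were detected in both groups at 20.7 CPM or more, and the lowest of them was Utf1.

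Transcripts of the target itself were nearly gone with either pool, with more left with si309. Counts of Duxf3 were 1 and 4 with si308 and 5 and 9 with si309, beside 256 and 193 with Chaf1a siRNA and 0 and 2 in the negative control. Each si309 library was above each si308 library, but the difference rested on few counts and did not pass the test (log2 1.5, SE 0.697, adjusted p = 0.285). Counts of AW822073 were 1 and 1 with si308 and 6 and 3 with si309. Gm10807 had no count with si308 and 1 count in each si309 library, Gm19459 had 1 count in all among the pools, and Gm4981 had 0 and 2 with si308 against 3 and 0 with si309. None of the 5 copies passed the test. Reads of near-identical copies can be assigned to the wrong copy, so the 5 were also summed. The sum was 2 and 7 counts with si308 and 16 and 13 counts with si309, against 546 and 443 with Chaf1a siRNA and 0 and 4 in the negative control. As a share of the mean CPM with Chaf1a siRNA, 0.695% was left with si308 and 2.58% with si309. The ratio of si309 to si308 was 3.38, with an exact 95% interval of 1.56 to 8.13 that covers counting error only and not the spread between replicates.

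**Figure D1:**
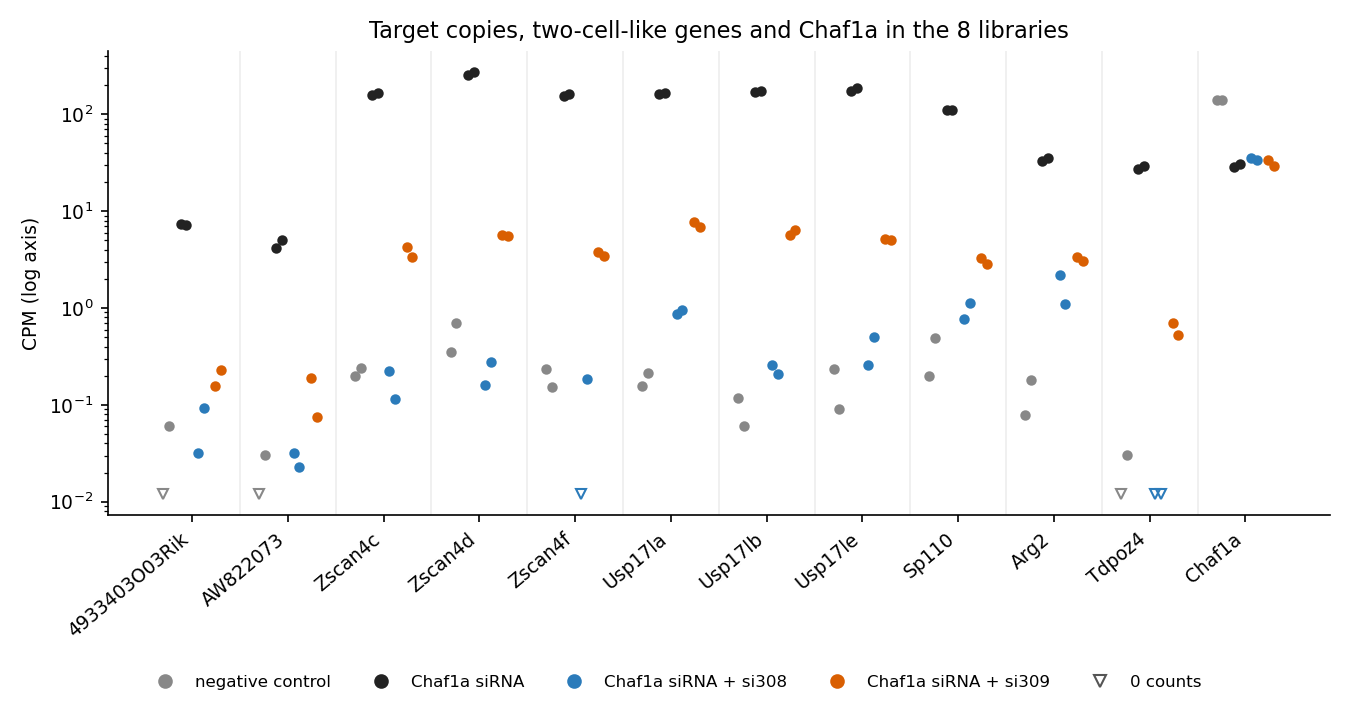
CPM of 2 Dux copies, 9 two-cell-like genes and Chaf1a in each library on a log axis; each point is 1 library, coloured by group, and open triangles at the foot mark libraries with 0 counts. The si309 libraries sit above the si308 libraries for each Dux copy and two-cell-like gene drawn, far below the Chaf1a siRNA libraries, while the 4 pool libraries lie close together for Chaf1a, between 29.2 and 35.2 CPM.

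Across all genes, 431 of 17970 tested were higher with si309 (2.4%) and 230 were lower (1.28%), and 115 (0.64%) were at least 2-fold higher against 9 (0.0501%) at least 2-fold lower. Among called genes with a symbol that is not a predicted model and, in the higher pool, an average of 1 CPM or more, the 8 largest differences were in Zscan4 and Usp17-like genes, followed by Mgp, S100a4, Scin and Sp110. Most of the other calls were small, since 246 of the 431 higher and 203 of the 230 lower genes differed by under 1.5-fold. The median over all genes was 0.00 on the log2 scale, and 54 of the 115 genes at least 2-fold higher have predicted-gene names. With 1 library left out, the counts fell to 165 higher and 46 lower without si309 replicate 1, 183 and 54 without si309 replicate 0, and 246 and 127 without si308 replicate 0. The 115 genes at least 2-fold higher fell to 76 without si309 replicate 1. The 9 at least 2-fold lower changed to 2 without si309 replicate 0, 3 without si309 replicate 1 and 4 without si308 replicate 0, and to 16 with the pool libraries alone, 27 with any count allowed and 3 with DESeq2.

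The two-cell-like genes were the clearest difference. Of the 43 tested members of a list of 56, 26 were higher with si309 and none was lower, and in 37 both si309 libraries were above both si308 libraries, where 22.9% of all tested genes were so ordered. The median log2 difference was 3.92, but 13 members had no count with si308. With those at the bound that 3 counts per si308 library allow, and 5 of them left out because si309 was at or under that bound too, the median over 38 genes was 2.86. Of the 26 calls, 4 (Gm13119, Gm4340, Arg2 and BC061212) were lost when 1 pool library was left out, with adjusted p up to 0.381, and each of the 4 pool libraries ended at least 1 of them.

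Zscan4 genes encode zinc finger proteins that mark the two-cell-like state and act on telomeres. All 5 tested genes of the cluster were higher with si309. Zscan4d, on chromosome 7 at 11161374 to 11166159, measured 0.16 and 0.276 CPM with si308 and 5.68 and 5.55 CPM with si309, beside 257 and 274 CPM with Chaf1a siRNA and 0.354 and 0.698 CPM in the negative control. The si308 libraries lay below both negative control libraries, and the si309 libraries lay above them (log2 4.60 between pools, SE 0.228, adjusted p = 1.95e-11). Zscan4c measured 0.224 and 0.115 CPM with si308 against 4.22 and 3.33 CPM with si309 (log2 4.51, SE 0.27, adjusted p = 2.82e-10). Zscan4f had 0 and 8 counts with si308 and 120 and 135 counts with si309, a ratio of 33.5 with a counting interval of 16.7 to 78.4. The summed level of the cluster was 0.416 and 0.737 CPM with si308, 15.7 and 13.8 CPM with si309.

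The Usp17-like genes encode a family of deubiquitinating enzymes, and all 5 tested were higher with si309. Usp17lb measured 0.256 and 0.207 CPM with si308 and 5.61 and 6.46 CPM with si309 (log2 4.71, SE 0.211, adjusted p = 7.9e-12). Usp17la was the member with most left, at 0.863 and 0.944 CPM with si308 and 7.64 and 6.89 CPM with si309 (log2 2.99, SE 0.147, adjusted p = 1.95e-11), so that 0.552% of the Chaf1a siRNA level remained with si308 and 4.44% with si309. The groups did not overlap for any of the 5. Of the Tdpoz genes, which encode BTB domain proteins, 4 of 6 were higher. Tdpoz4 had no count with si308 and 22 and 21 counts with si309, and was at least 7.44-fold higher with si309 (3 counts per library, adjusted p = 3.86e-05). Tdpoz3 was at least 3.57-fold higher by the same bound (adjusted p = 0.0012). Of the Tcstv genes, markers of the two-cell stage, AF067061 (0.064 and 0 against 0.412 and 0.758 CPM, adjusted p = 3.82e-04) and D13Ertd608e (no count against 8 and 14 counts, at least 3.68-fold, adjusted p = 0.00172) were higher, and Tcstv3 had 0 and 2 counts against 7 and 8 (adjusted p = 0.0726). Members of the Zscan4, Usp17-like, Tdpoz and Tcstv families are close copies of each other, so the values of single members are uncertain.

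Two-cell-like genes outside these families were higher too. Tmem92 had 0.023 CPM on average with si308 and 0.971 CPM with si309 (log2 5.0, SE 0.571, adjusted p = 9.63e-06), and Zfp352, a zinc finger gene of the two-cell embryo, had 0.055 and 0.595 CPM (log2 3.38, SE 0.515, adjusted p = 3.53e-04). Sp110, a nuclear body protein, measured 0.767 and 1.13 CPM with si308 and 3.27 and 2.85 CPM with si309 (log2 1.64, SE 0.201, adjusted p = 2.54e-05). Spz1, a helix-loop-helix factor, had no count with si308 and 20 counts over both si309 libraries (adjusted p = 0.00353). Arg2, mitochondrial arginase, differed least of the called members, at 1.66 against 3.24 CPM (log2 1.02, adjusted p = 0.00883). Listed members that did not pass included Obox6 (log2 0.51, adjusted p = 0.44), Usp26 (0.24, adjusted p = 0.408) and Zfp750 (0.25, adjusted p = 0.443). None of the 4 Obox genes, 9 Prame-like genes or 4 Phf11 genes tested passed in either direction. Of the 4 Obox genes, 3 had no count with si308 and at most 6 counts with si309. Pramef6 had 0 counts with si308 and 8 with si309 (adjusted p = 0.0595), and Phf11a had 3 and 17 (adjusted p = 0.0598). At such counts a missing call does not show equal levels. Both si309 libraries were above both si308 libraries in 5 Prame-like genes and below them in 2, and in Phf11 in 1 and 1.

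Set against the level with Chaf1a siRNA, both pools left little of the two-cell transcripts, and si309 left more. The median member kept 0.104% of the Chaf1a siRNA level with si308 and 2.53% with si309, with quartiles of 2.07% and 3.5% for si309. These percentages share their denominator and describe each pool, and 39 of the 43 genes were under 10% with both. The mean with si308 was at or below the negative control mean for 27 of the 43 genes, and that with si309 for 1. Both si309 libraries were above both negative control libraries for 38 genes, and both si308 libraries for 10. The summed Dux copies had 0.695% and 2.58% left. In RNA from whole cultures, fewer cells of the two-cell-like type and less RNA in each such cell cannot be told apart.

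**Figure D2:**
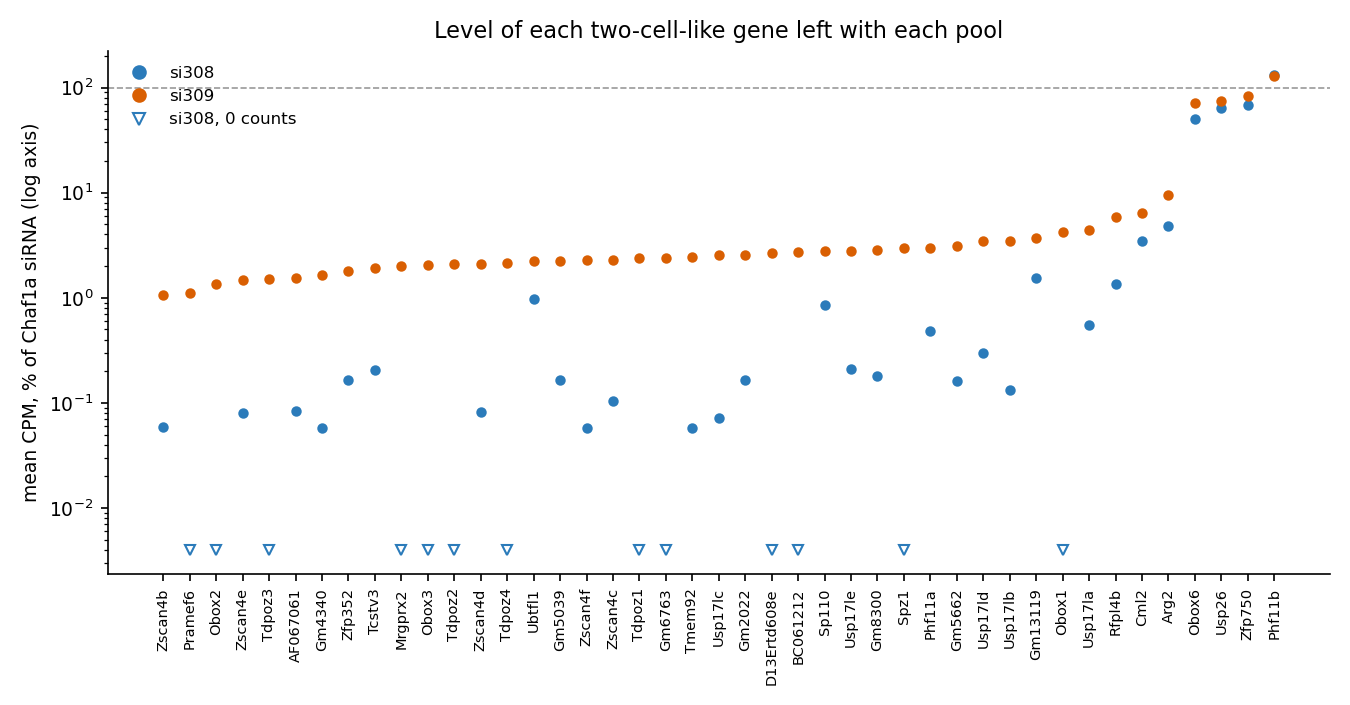
Mean CPM of each of the 43 tested two-cell-like genes with si308 (blue) and with si309 (orange), as a percent of the mean with Chaf1a siRNA, on a log axis; open triangles at the foot mark genes with 0 counts with si308. The median is 2.53% for the orange and 0.104% for the blue points, and the blue points lie below the orange ones for every gene but Phf11b.

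The promoters of called genes were searched on both strands for letters of sites bound by DUX family factors. These were TGATT or TAATC followed by any base and AATCA, and the core GATTNAATC of the first form. RefSeq promoters (GRCm38.p6, 250 bases before to 50 after the start) were found for 279 of the 431 higher genes and 170 of the 230 lower genes, and the longer letters were in none of them and in 0.067% of all 32851 promoters. The core was in 3 of the 279 promoters of higher genes (1.08%) and in none of the 170 of lower genes. All 3 were among the 53 promoters of genes at least 2-fold higher (5.66%). It was in 0.202% of the promoters of all tested genes and 0.268% of all promoters. The 3 were Gm4340, AF067061 and Gm21761. The promoters of AF067061 and Gm21761 are close copies with the same core letters, so their matches are not separate observations. The promoters of Gm4340 and AF067061 are shown because they belong to genes that moved with the two-cell group, on the plus strand, chr10:104193792-104194091 for Gm4340 and chr13:120262845-120263144 for AF067061, with the core in capitals.
Gm4340: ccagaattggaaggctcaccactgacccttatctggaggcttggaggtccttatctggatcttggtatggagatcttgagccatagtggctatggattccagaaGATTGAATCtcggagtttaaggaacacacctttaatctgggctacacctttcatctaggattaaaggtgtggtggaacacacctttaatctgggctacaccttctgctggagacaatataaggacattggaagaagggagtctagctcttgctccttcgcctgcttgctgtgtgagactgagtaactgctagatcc
AF067061: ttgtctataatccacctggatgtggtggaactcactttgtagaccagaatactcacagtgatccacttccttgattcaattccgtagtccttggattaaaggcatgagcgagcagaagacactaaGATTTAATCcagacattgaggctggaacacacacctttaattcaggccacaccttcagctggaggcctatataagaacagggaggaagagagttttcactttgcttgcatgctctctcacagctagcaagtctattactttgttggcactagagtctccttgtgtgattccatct
The core began 146 bases before the annotated start of Gm4340 and 125 bases before those of AF067061 and Gm21761. A match of letters does not show that a factor binds there.

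The pool difference followed how strongly genes had responded to Chaf1a siRNA, a contrast that shares no library with the comparison of the pools. Chaf1a siRNA raised 3901 genes at least 2-fold against the negative control (21.7% of those tested). Of these, 289 were higher with si309 (7.41%) and 16 lower, with a median log2 difference of 0.16. The other 14069 genes held 142 higher and 214 lower calls, with a median of -0.02. Among the 542 genes raised at least 64-fold, 102 were higher with si309 (18.8%), none was lower, and the fitted median was 0.94. Of the 542, 121 had no count with si308. With 90 of them left out because si309 was at or under the bound too, and the others at their bound, the median over 452 genes was 0.60. Genes raised 8-fold to 64-fold had a median of 0.26 (0.25 with the bounds) and genes raised 2-fold to 8-fold one of 0.11. In the opposite direction, the 652 genes lowered at least 2-fold by Chaf1a siRNA held 29 lower calls and no higher call, with a median of -0.13. Without 1 library, the 289 higher calls fell to 139 without si309 replicate 1, 152 without si309 replicate 0 and 178 without si308 replicate 0. The 16 lower calls changed to 4 without si309 replicate 0, 5 without si309 replicate 1, 8 without si308 replicate 1 and 25 without negative control replicate 1.

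**Figure D3:**
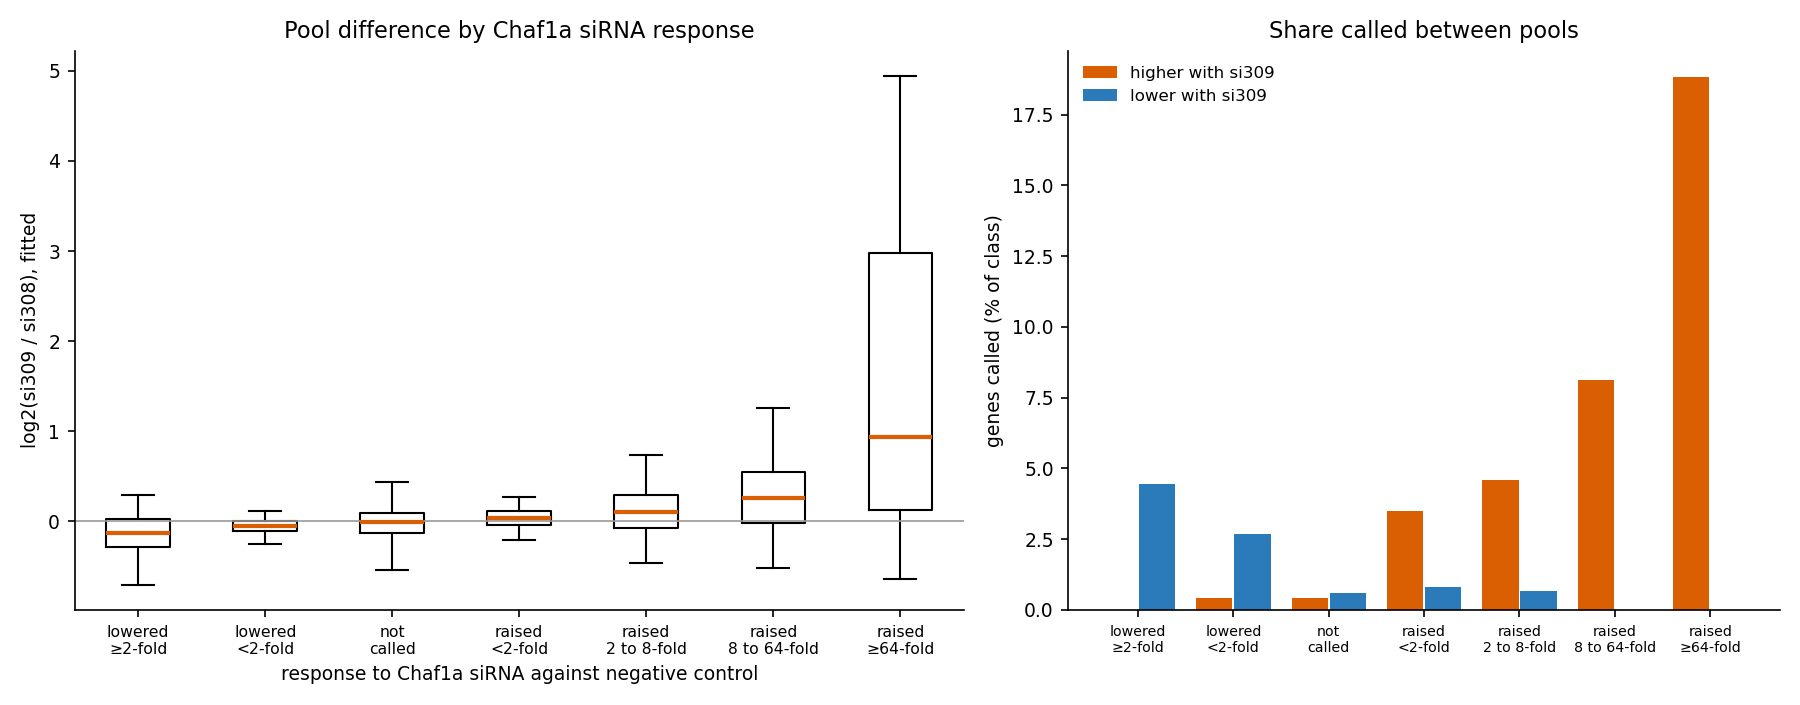
Left, fitted log2 difference between the pools in 7 classes of genes by their response to Chaf1a siRNA against negative control (boxes are quartiles with the median in orange, whiskers the 5th and 95th percentiles); right, the percent of each class called higher or lower with si309, from a bar base of 0. Fitted medians go from -0.13 in the class lowered at least 2-fold to 0.94 in the class raised at least 64-fold, and the share called higher reaches 18.8%.

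Outside the two-cell genes, some members of other lists were higher with si309 by smaller amounts. Of 28 tested imprinted genes, 7 were higher and 1 was lower (25% and 3.57%, beside 2.4% and 1.28% of all genes), with a median of 0.21. Among genes raised at least 2-fold by Chaf1a siRNA with a mean of at least 1 CPM, 12.4% were higher. Of the 7, all but Plagl1 had a higher mean with Chaf1a siRNA than in the negative control. The list's summed level overlapped between the pools, at 3504 and 3617 CPM with si308 and 3608 and 3565 CPM with si309. Peg10, a retrotransposon-derived placental gene, measured 167 and 190 CPM with si308 and 287 and 279 CPM with si309, between the negative control at 101 CPM and Chaf1a siRNA at 417 CPM (log2 0.66, SE 0.055, adjusted p = 6.05e-08). H19, a growth-restraining noncoding RNA, measured 33.5 and 36 CPM with si308 and 53.3 and 53.9 CPM with si309, where Chaf1a siRNA gave 53.7 CPM (log2 0.62, SE 0.067, adjusted p = 3.47e-06). The libraries did not overlap for either gene. Nnat, a neuronal membrane proteolipid (log2 0.60, adjusted p = 3.62e-04), and Cdkn1c, a cyclin-dependent kinase inhibitor (0.83, adjusted p = 0.00124), were also higher. Those 4 calls held with each library left out in turn, and the calls of Igf2, Mest, Rian and Plagl1 did not, with adjusted p up to 0.268 and losses without either Chaf1a siRNA library or any of the 4 pool libraries.

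Of 17 tested fibroblast and feeder markers, 5 were higher (29.4%, beside 2.4% of all genes) and none lower (median 0.35). The 5 called genes had higher means with Chaf1a siRNA than in the negative control. Among genes raised at least 2-fold by Chaf1a siRNA with a mean of at least 1 CPM, 12.4% were higher. The list's summed level overlapped, at 2144 and 2122 CPM with si308 and 2220 and 2102 CPM with si309, and was 2548 and 2624 CPM with Chaf1a siRNA and 2789 and 3139 CPM in the negative control. In 12 members both si309 libraries were above both si308 libraries and in 3 below them, where 22.9% and 23.4% of all genes were so ordered. S100a6, a calcium-binding protein, measured 55 and 57.5 CPM with si308 and 93.4 and 92.7 CPM with si309, where Chaf1a siRNA gave 76.6 CPM and the negative control 4.45 CPM (log2 0.72, SE 0.060, adjusted p = 6.05e-08). Col1a2, a collagen chain, measured 3.71 and 4.93 CPM against 8.62 and 7.83 CPM (log2 0.91, SE 0.152, adjusted p = 9.38e-04). Mgp, an inhibitor of calcification, had 6 and 6 counts with si308 and 43 and 40 with si309 (log2 2.84, adjusted p = 3.62e-04). S100a4 (log2 2.28, adjusted p = 0.00473) was higher as well, as was Tagln, a smooth muscle actin-binding protein (0.90, adjusted p = 0.0295). The calls of S100a4 and Tagln were lost without 1 or more of the 4 pool libraries, with adjusted p up to 0.277. Scin, an actin-severing protein outside this list and among the largest differences, had a log2 difference of 1.82 (adjusted p = 0.0069) and lost its call without si308 replicate 0 or si309 replicate 0, with adjusted p of S100a4 and Scin up to 0.0913. The part of these markers in the other differences was not tested.

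Germline genes, which DNA methylation and related repressors keep silent in most cells, held 4 higher and 0 lower calls of 26 tested (median 0.17). This share was 15.4% higher, beside 2.4% of all genes. It was near that of genes raised at least 2-fold by Chaf1a siRNA with a mean of at least 1 CPM (12.4% higher, median 0.15). The 4 called genes had higher means with Chaf1a siRNA than in the negative control. Tex101, a testis surface protein, measured 107 and 104 CPM with si308 and 141 and 148 CPM with si309, where Chaf1a siRNA gave 107 CPM (log2 0.45, SE 0.052, adjusted p = 1.1e-05). Taf7l, a germ cell TFIID subunit, measured 94.6 and 93 CPM against 119 and 131 CPM (log2 0.42, adjusted p = 3.74e-04). Brdt, the testis bromodomain protein, had a log2 difference of 1.09 (adjusted p = 9.42e-04). Dazl, an RNA-binding protein of germ cells (0.26, adjusted p = 0.00588), lost its call without si308 replicate 1, si309 replicate 0 or si309 replicate 1, with adjusted p up to 0.0906.

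Genes of the p53 response held 9 higher and 0 lower calls of 27 tested, a share of 33.3% beside 2.4% of all genes, with a median of 0.12. The list's summed level was 3774 and 3953 CPM with si308 and 4220 and 4158 CPM with si309. Both pools lay below Chaf1a siRNA at 4472 and 4568 CPM and above the negative control at 3253 and 3255 CPM. Perp, a membrane protein induced by p53, measured 37.7 and 39.9 CPM with si308 and 54.1 and 57.4 CPM with si309 (log2 0.52, SE 0.068, adjusted p = 5.59e-05). Zmat3, an RNA-binding p53 target, measured 107 and 110 CPM against 132 and 131 CPM (log2 0.27, SE 0.048, adjusted p = 0.00128). Pmaip1 (log2 0.41) and Plk2 (0.28), a pro-apoptotic protein and a kinase, were higher too, as were Ccng1, Mdm2, Phlda3, Trp53inp1 and Ei24 at 0.16 to 0.26. Apart from Perp and Zmat3, each of these calls was lost without at least 1 library, with adjusted p up to 0.374: 7 were lost without si309 replicate 0, 6 without si308 replicate 0, 5 without si309 replicate 1, 1 without si308 replicate 1 and 2 without either Chaf1a siRNA library.

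Interferon response genes went both ways, with 3 higher and 3 lower of 30 tested (median 0.04). These were 10% each, beside 2.4% higher and 1.28% lower of all genes. B2m, the light chain of MHC class I, measured 59.3 and 60.1 CPM with si308 and 80.1 and 85.3 CPM with si309 (log2 0.47, SE 0.057, adjusted p = 2.31e-05). Ifitm1 (log2 -0.41, adjusted p = 1.02e-04), Ifitm3 (-0.34, adjusted p = 5.21e-04) and Ifitm2 (-0.22, adjusted p = 0.0114), membrane proteins that are abundant in embryonic stem cells, were lower. Irf7, a transcription factor of the interferon response, was higher (log2 1.43, adjusted p = 0.0434). The calls of Irf7 and Ifitm2 were lost without at least 1 library, with adjusted p up to 0.242, among them each pool library and each Chaf1a siRNA library. Of 27 genes of double-stranded RNA sensing and RNA interference, Ago1, a core protein of RNA interference, was the 1 that passed, at 124 and 125 CPM with si308 and 99.3 and 94.8 CPM with si309 (log2 -0.36, SE 0.050, adjusted p = 1.06e-04).

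Other groups held fewer calls. Primitive endoderm genes had 3 higher of 18 (16.7%, beside 2.4% of all genes) and 0 lower, with a median of 0.21. The 3 were Dab2 (0.57), Lrp2 (0.29) and Lamb1 (0.23), each with a higher mean with Chaf1a siRNA than in the negative control. The list's summed level was 775 and 819 CPM with si308 and 885 and 876 CPM with si309. With Chaf1a siRNA it was 928 and 947 CPM, and in the negative control 523 and 579 CPM. None of the 3 calls held with each library left out (adjusted p up to 0.38, with losses without each pool library and each Chaf1a siRNA library). Trophectoderm genes had 2 higher of 18 (11.1%) and 0 lower, Cdkn1c and the keratin Krt18 (0.48). Their summed level was 201 and 204 CPM with si308 and 227 and 230 CPM with si309. With Chaf1a siRNA it was 204 and 205 CPM, and in the negative control 168 and 174 CPM. Krt18 lost its call without si308 replicate 0, si309 replicate 0 or si309 replicate 1 (adjusted p up to 0.237). The part of either list in the other differences was not tested. The homeobox genes Rhox6 and Rhox9 were higher (0.49 and 0.45), 12.5% of 16 Rhox genes. Both lost their call without si308 replicate 0 or si309 replicate 1, and Rhox9 also without si309 replicate 0 (adjusted p up to 0.336). No gene of 23 CAF-1 and histone chaperone genes, 26 S phase genes, 23 G2 and M phase genes, 14 Hox genes or 29 replication histones passed in either direction.

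Genes that were lower with si309 were fewer and mostly changed by less. Of 27 naive pluripotency genes, 5 were lower and 1 was higher (median -0.10), and 18.5% lower compares with 1.28% of all genes. Tcl1, a coactivator of AKT, measured 61.9 and 57.4 CPM with si308 and 42.8 and 45 CPM with si309, where Chaf1a siRNA gave 44.7 CPM and the negative control 124 CPM (log2 -0.44, SE 0.061, adjusted p = 9.45e-05). Tet1, which oxidises methylcytosine, measured 274 and 247 CPM against 206 and 202 CPM (log2 -0.35, SE 0.051, adjusted p = 1.94e-04). Both si308 libraries were above both si309 libraries for these genes. Pou5f1 (-0.20), Fgf4 (-0.26) and Tet2 (-0.25) were lower and Klf4 (0.26) was higher, and these 4 calls were lost without at least 1 of the 4 pool libraries (adjusted p up to 0.285). Genes of cholesterol synthesis had 5 lower (20.8%) and 0 higher of 24 (median -0.15, all 24 differences between -0.39 and -0.02). Insig1, which holds back the sterol-regulated factors, measured 144 and 115 CPM with si308 and 101 and 102 CPM with si309, and Hmgcs1, an early enzyme, 327 and 306 CPM against 274 and 271 CPM. With Chaf1a siRNA they stood at 72.4 and 194 CPM. The 5 calls, among them those of Hmgcs1, Insig1, Nsdhl and Lss (log2 -0.35 to -0.22), were all lost without si308 replicate 0 and all lost without si309 replicate 1 (adjusted p up to 0.43), and 4 of them also without si309 replicate 0.

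Among called genes with a symbol that is not a predicted model and at least 1 CPM in the higher pool, the largest decreases from si308 to si309 were in Gmnc, Asb9, Lnx1, Spink10, Myb, Chrna9, Kcnt1, Cabp4, Inhbb, Slc11a1, Rfx4 and Nmi, at log2 -1.62 to -0.81. Their means were 128% to 379% of the Chaf1a siRNA mean with si308 and 71.1% to 120% of it with si309. The 12 were chosen by the difference between the pools, so these shares are a description only. Slc11a1, a metal ion transporter of phagosomes, on chromosome 1 at 74375195 to 74386062, measured 45.5 CPM in both si308 libraries and 22.8 and 25.5 CPM with si309. It stood at 21.9 and 22.9 CPM in the negative control and 25.8 and 24.6 CPM with Chaf1a siRNA, so the si308 libraries were above the other 6 (log2 -0.91 between pools, SE 0.075, adjusted p = 6.05e-08). Myb, a transcription factor of progenitor cells, measured 4.45 and 4.08 CPM with si308 and 2.41 and 1.59 CPM with si309 (log2 -1.11, SE 0.202, adjusted p = 0.00217). Its mean was 2.63 CPM with Chaf1a siRNA and 9.59 CPM in the negative control. Spink10, named for a family of protease inhibitors, measured 11.5 and 10.5 CPM against 4.57 and 5.53 CPM (log2 -1.12, SE 0.134, adjusted p = 1.93e-05). Its mean was 6.18 CPM with Chaf1a siRNA and 0.986 CPM in the negative control. Of the 12, Spink10 and Slc11a1 kept their call with each library left out, and the other 10 did not (adjusted p up to 0.381): 6 were lost without si308 replicate 0, 7 without si308 replicate 1, 8 without si309 replicate 0, 10 without si309 replicate 1 and 1 without either Chaf1a siRNA library.

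With the same limits on symbol and level, genes that Chaf1a siRNA had not raised by 1.5-fold showed smaller increases. The 12 largest were Cables1, Blnk, Pdk4, Arhgef10, Epdr1, Fgfr2, Htra1, Cd302, Gcnt1, Rec8, Spsb1 and H2afv, at log2 0.44 to 0.87. Below the level limit, Fgf8, not called with Chaf1a siRNA, averaged 0.043 CPM with si308 and 0.462 CPM with si309 (log2 3.40, adjusted p = 0.0174). Htra1, a secreted serine protease, measured 48.4 and 50.4 CPM with si308 and 70.3 and 66.3 CPM with si309 (log2 0.46, SE 0.061, adjusted p = 5.59e-05). H2afv, a variant histone of the H2A.Z type, measured 84.6 and 77 CPM against 104 and 114 CPM, and stood at 104 CPM with Chaf1a siRNA and 98.1 CPM in the negative control (log2 0.44, SE 0.060, adjusted p = 9.98e-05). Pdk4, a kinase that restrains pyruvate dehydrogenase, measured 3.93 and 4.35 CPM against 6.31 and 5.98 CPM, both below Chaf1a siRNA at 11.6 CPM. Calls other than those of Htra1 and H2afv were lost without at least 1 library, with adjusted p up to 0.483, among them each of the 4 pool libraries and each Chaf1a siRNA library. The 12 largest decreases of this kind, within those limits, included Calml4 and Nos3, and of those 12 all but Slc11a1 lost their call without at least 1 library, again each pool library and each Chaf1a siRNA library, with adjusted p up to 0.355.

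Of all genes called between the pools, 59 were not called with Chaf1a siRNA against the negative control. In this group, 25 were higher and 34 lower with si309, shares of 0.428% and 0.582% of the 5846 genes not called there. Against the Chaf1a siRNA libraries, which both counts share, 35 of the 59 were called with si308 and 10 with si309. Of all 17970 genes, 3924 and 1951 were called. The 59 were chosen by a difference between these same pool libraries. Their counts are therefore a description only, and the counts over all genes are not a like background. Slc11a1 had a log2 difference from Chaf1a siRNA of 0.85 with si308 (adjusted p = 1.79e-08) and -0.06 with si309 (adjusted p = 0.72). No transcript of Slc11a1 in GENCODE M21 held a 21-base or 19-base stretch of either fragment. The search covered exact matches of these lengths only, and the cause of the Slc11a1 difference was not tested.

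**Figure D4:**
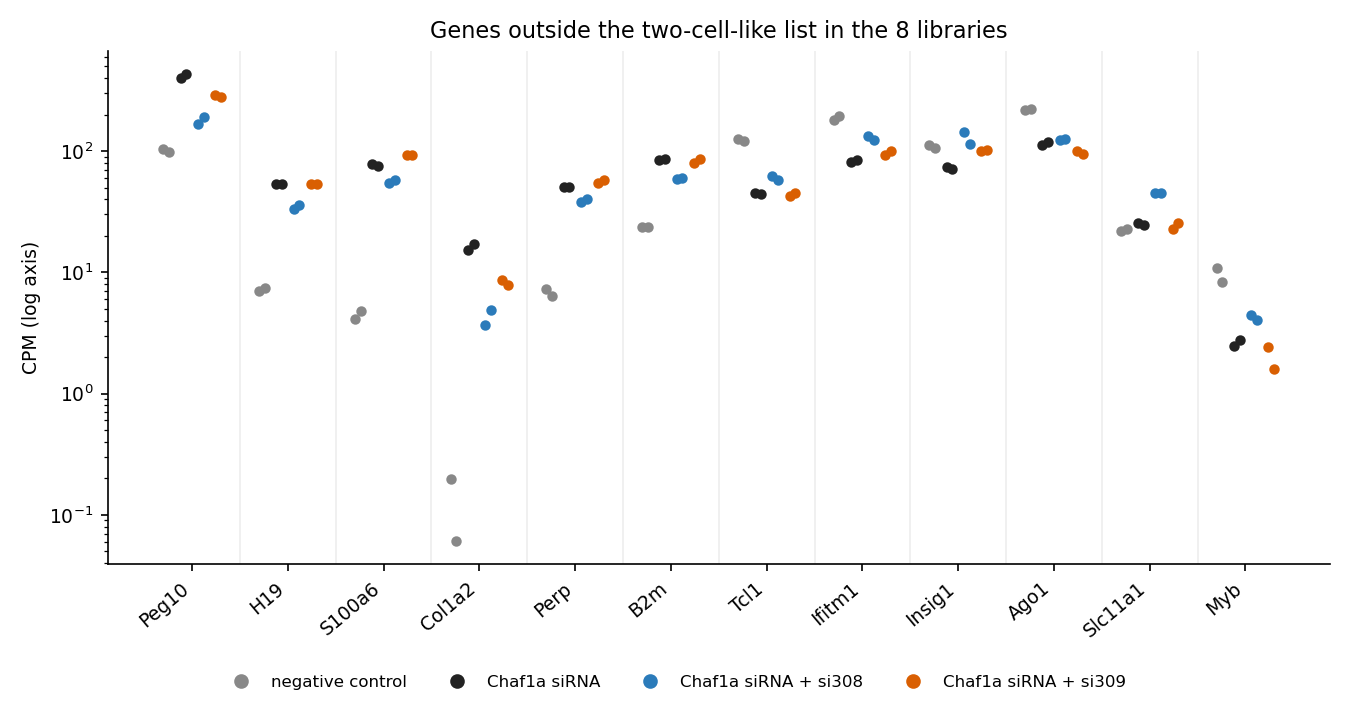
CPM of 12 genes outside the two-cell-like list in each library on a log axis; each point is 1 library, coloured by group. The si309 points lie above the si308 points from Peg10 to B2m and below them from Tcl1 to Myb, and the si308 libraries of Slc11a1, at 45.5 CPM, lie above the other 6.

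Of 1253 repeat names, tested in a separate edgeR quasi-likelihood fit and adjusted over the 1253, 2 were higher with si309 (0.16%) and 0 lower. They were the 2 parts of MERVL. The fit used a quasi-likelihood spread shared across all repeats, so p-values do not rest on the replicates of a single repeat. The internal part, MERVL-int, measured 75.9 and 70.9 CPM, scaled by gene counts, with si308 and 124 and 118 with si309, beside 59.5 and 59.7 in the negative control and 2615 and 2772 with Chaf1a siRNA. The 3 groups with low levels did not overlap, with si309 above si308 and si308 above the negative control (log2 0.72 between pools, SE 0.076, adjusted p = 7.35e-18). Its LTR, MT2_Mm, measured 37.7 and 33.8 with si308 and 46.6 and 45.6 with si309, beside 33.3 and 34.2 in the negative control (log2 0.37, SE 0.082, adjusted p = 0.00392). The call of MT2_Mm was lost without si309 replicate 0 (adjusted p = 0.553) or si309 replicate 1 (adjusted p = 0.504), and that of MERVL-int held in every such fit.

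The other repeat groups had medians below 0, from -0.13 to -0.06, and no member passed. The median over all repeats was -0.10 on the log2 scale, and 444 repeats (35.4%) had both si308 libraries above both si309 libraries, against 68 (5.43%) in the opposite order. Repeat counts per 100 gene counts were 7.7 in si308 replicate 0, 6.95 in si308 replicate 1 and 6.94 and 6.9 with si309, so si308 replicate 0 was above the other 3 pool libraries. L1 elements summed to 10870 and 9947 with si308 and 9466 and 9518 with si309, and ERVK elements to 7401 and 6776 against 6715 and 6584. In both sums si308 replicate 0 was the highest of the 4 pool libraries, and si308 replicate 1 was closer to the si309 libraries than to it. Satellites summed to 1451 and 1464 with si308 against 1335 and 1313 with si309, and ERV1 elements to 1883 and 1840 against 1927 and 1913. At an unadjusted p under 0.05, 102 repeats were lower and 9 higher with si309, and the DESeq2 Wald test also called 0 lower. Leaving out si308 replicate 0 gave 4 lower and 2 higher repeats, and leaving out si308 replicate 1 gave 304 lower and 6 higher.

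**Figure D5:**
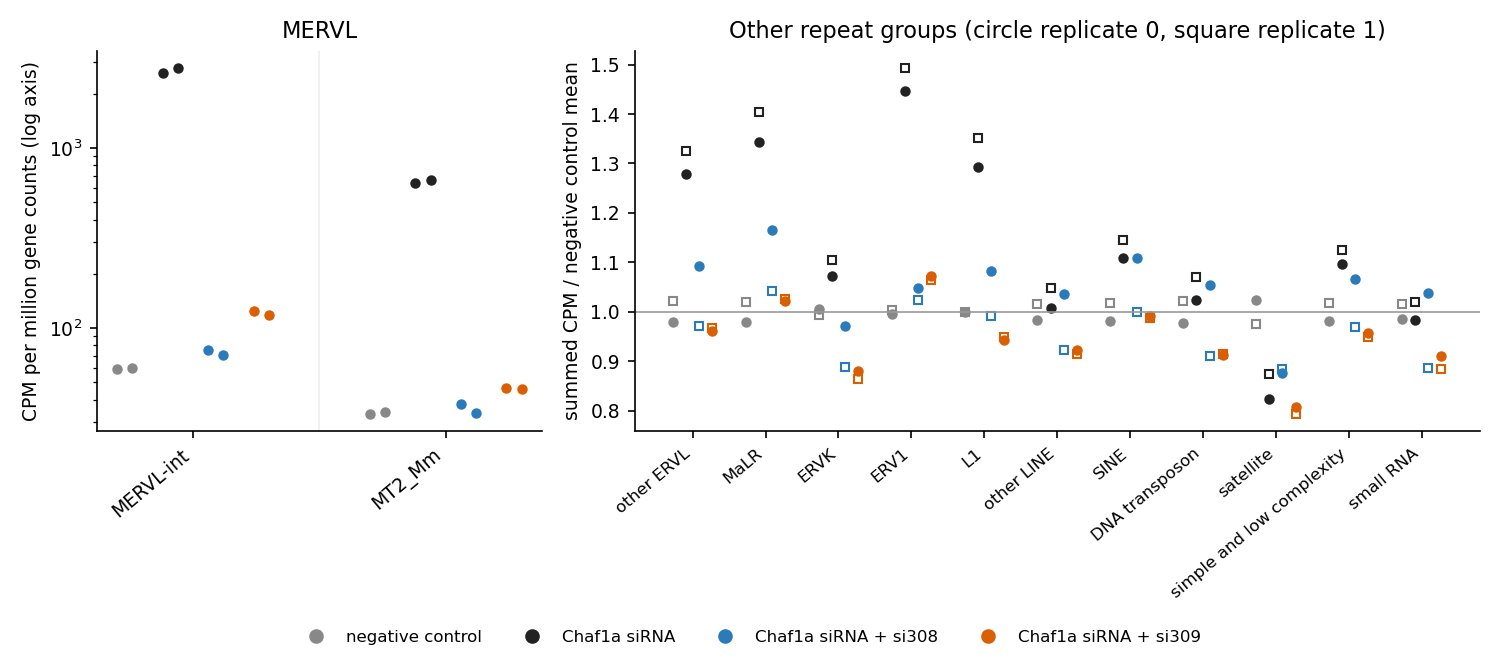
Left, CPM of MERVL-int and MT2_Mm in each library on a log axis; right, summed counts of the other repeat groups in each library relative to the negative control mean, with circles for replicate 0 and open squares for replicate 1. MERVL-int lies at 124 and 118 with si309 and at 75.9 and 70.9 with si308, and the filled blue circle of si308 replicate 0 lies above the other 3 pool libraries in every group but ERV1 and satellites.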

How the data were processed

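RNA of mouse embryonic stem cells was sequenced as 8 stranded poly(A) libraries, 125 cycles paired, per the labels' protocols. The submitters' processing notes name the aligner Novoalign 2.8, the build mm10 and DESeq2, and the counter and gene annotation are not given in the sources used here. The gene and repeat tables deposited by the authors hold raw counts. The other 8 per-sample columns of each table were not used. Columns carry the replicate numbers 0 and 1 and were tied to groups only.

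Counts of 17970 of 28431 genes that passed filterByExpr, from all 8 libraries in 4 groups, were scaled by TMM and tested with edgeR 4.0.16 (quasi-likelihood, 4 residual degrees of freedom, Benjamini-Hochberg adjusted p under 0.05). The 1253 of 1499 repeats tested used the gene library sizes and factors, and were grouped by the table's own type and family columns after the table was seen. On simulated data, 80.6% of genes changed 1.5-fold and 92.5% of those changed 2-fold were called. Changes were set only in genes averaging 1 CPM or more with si308, and counts were drawn with the fitted spread. The shares do not cover genes at lower levels. Of the 115 genes at least 2-fold higher, 54 averaged 1 CPM or more in the higher pool. A group at 0 was set to 3 counts per library, and count intervals (95%, exact) cover counting error only. Gene coordinates are from GENCODE M21. Named genes were Chaf1a, the Dux copies, the 12 largest changes each way among called genes whose libraries did not overlap, averaging 1 CPM or more in the higher pool and with no predicted-model symbol, the same among genes not raised 1.5-fold by Chaf1a siRNA, and the list members with the smallest adjusted p. Further list members were named because they were called. The members and lists were chosen with earlier results of these data known. Alternatives covered scaling, filters, the pool libraries alone, robust estimation, DESeq2 1.42.0, the replicate block and each library left out. Results for some genes that the rules would name are not reported here.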

Additional observations from a re-analysis of the deposited data

How the results depend on the processing

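With each library left out in turn, 165 to 572 genes were higher and 46 to 332 lower, 76 to 143 at least 2-fold higher and 2 to 12 at least 2-fold lower. Of genes raised by Chaf1a siRNA, 139 to 366 were higher and 4 to 25 lower, and 1 to 6 repeats were higher and 0 to 304 lower. With any count allowed, 373 genes were lower, 27 at least 2-fold lower and 33 of the raised genes lower. With the 4 pool libraries alone, 16 genes were at least 2-fold lower and 1 repeat was higher. With DESeq2, 3 genes were at least 2-fold lower and 8 raised genes lower. With the repeat table's own library sizes, 7 repeats were higher. The direction turned for Gm4981 without si308 replicate 0 (-0.11) and without si309 replicate 0 (-3.02), and Gm19459 went to 0 without si309 replicate 0. Over the fits without 1 library Gm4981 reached 3.56 and Gm19459 3.2, and neither passed the test in any of them. The replicate block gave 430 higher and 230 lower genes, and the numbers did not pair the samples (r of -0.0976 to 0.111 between same-numbered libraries). Of 117 named features with a call, 48 kept it without each library, 69 lost it without at least 1, and 0 turned. The causes were not tested. With 2 libraries a group, each feature has 4 residual degrees of freedom of its own. The gene tests added 17 prior degrees of freedom from the spread over all genes. For repeats the prior was infinite, so their p-values rest on a spread shared across all repeats. The Dux copies rest on 9 and 29 counts in all.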
